A study of Mus musculus with 8 samples.

Results

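The genes described here serve the uptake, activation and oxidation of fatty acids, the peroxisome, and the Ppar regulators of these processes. The list holds 38 mouse genes chosen by name, and all annotated probes of each gene were read. Expression was measured on 8 Illumina bead arrays, 1 for each sample of intestinal organoids, which are epithelial cultures grown from crypts. All 8 samples came from mice of the genetic background C57Bl aged 3 to 4 months, had Apc mutated after tamoxifen, and were then kept without growth factors. Untreated organoids gave 4 samples, and organoids exposed for 18 h to 3 ng/ml TGF-beta gave the other 4. The series text speaks of Apc as deleted and the sample labels as mutated, neither names the allele or the Cre line, and every sample carries the mutation, so Apc-intact organoids are not analysed here. Replicates are numbered 1 to 4 in both groups, and whether they came from separate cultures or animals is not said. So the p-values reflect the spread among these 8 samples, part of which may be technical.

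Fatty acids enter a cell with the help of membrane proteins and are joined to coenzyme A by acyl-CoA synthetases. The carnitine shuttle then carries long chains into mitochondria, where a cycle of dehydrogenation, hydration, dehydrogenation and thiolysis shortens them, and electrons from the first of these steps pass through the electron transfer flavoprotein to the respiratory chain. Peroxisomes shorten very long and branched chains by a similar cycle whose first oxidase makes hydrogen peroxide. In the small intestine, enterocytes take up dietary fat and use much of the same machinery, and nuclear receptors of the Ppar family, bound by fatty acids, switch on many of the genes.

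The arrays detected between 14554 probes (TGF-beta replicate 2, which also had the lowest mean intensity) and 16626 probes above background. Apc itself gave normalized log2 levels of 5.42 to 5.80 in untreated and 5.22 to 5.31 in TGF-beta samples (difference -0.36, limma adjusted p = 0.087), and it does not check the genotype, since the position of the probe on the transcript is unknown here. Of 9 epithelial marker genes all 9 were detected on at least 4 arrays, Epcam on TGF-beta arrays only. Of other markers with a probe, 0 of 7 fibroblast and 0 of 4 endothelial ones were detected on at least 4 arrays. So were 1 of 4 immune markers (Cd3e) and 2 of 6 adipocyte markers (Lep and Cidec). Xist, transcribed in female cells, was at 9.30 to 10.18 in replicates 2 and 3 of both groups and at 4.45 to 4.69 in replicates 1 and 4, and the Y-linked Eif2s3y was at 8.20 to 8.48 in replicates 1 and 4 and at 4.42 to 4.72 in the others. Each of these sets of replicates thus holds 2 untreated and 2 TGF-beta samples, and the sets are used below.

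Most of the fatty acid oxidation genes did not pass the test for a difference with TGF-beta, and neither did most of all tested genes (7300 of 9062). Of the 38 genes, 37 had a named probe, with 82 probes in all, and 32 had a probe detected above background on at least 4 of the 8 arrays and were tested. Acsl3 and Pparg rose with TGF-beta and Slc27a2, Acsl5 and Ppargc1a fell (limma, adjusted p under 0.05), which is 15.6% of the tested members against 19.4% of all 9062 genes. By direction, 9.57% of all genes rose and 9.88% fell. At an unadjusted p under 0.05, 3 of the 32 members were higher and 4 lower, against 14.9% and 18% of all genes. The median difference (TGF-beta minus untreated, log2) was 0.01 over the tested members and -0.05 over all genes. For 23 of the 27 members that did not pass, the 95% interval of the difference lay within a 2-fold change in either direction, and for Acaa2, Etfb, Etfdh and Pex11a it reached beyond. The share of all genes with such an interval was not computed, so the count does not set the members apart. Of the 27, 24 were detected on all 8 arrays. Acsl4, Hadha and Ehhadh were not, and so near the detection limit a narrow interval does not show that a gene stayed unchanged. The samples of the groups did not overlap for 6 members, with the TGF-beta samples above for 3 and below for 3, against 11.9% and 12.9% of all genes, or 24.8% in either direction. Since the arrays hold RNA of whole organoids, fewer cells of a type and less RNA per cell cannot be told apart in any of these values.

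**Figure D1:**
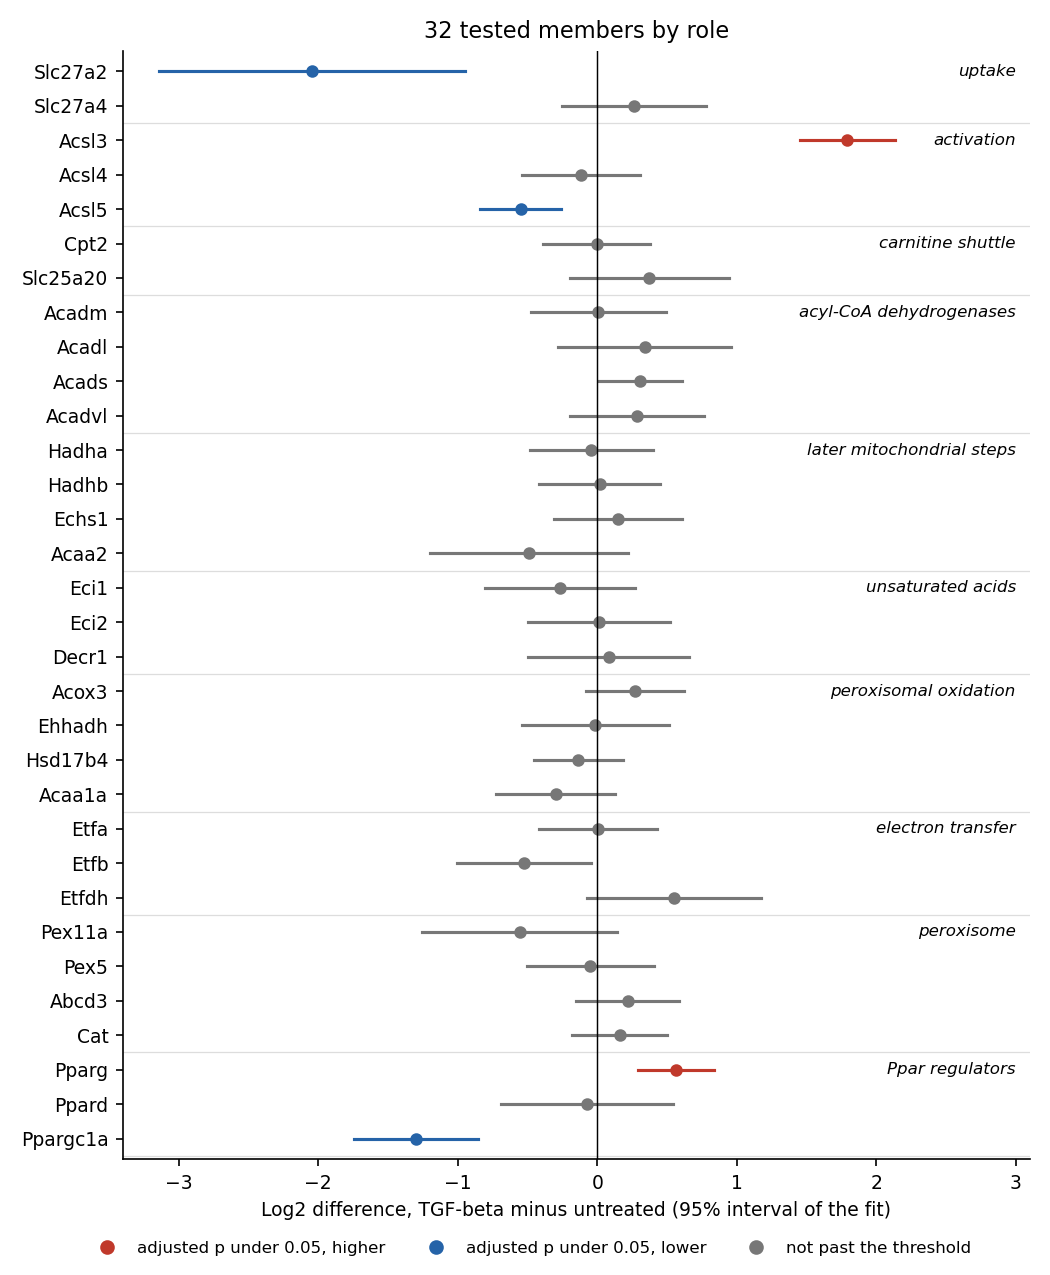
Log2 difference (TGF-beta minus untreated) of the 32 tested genes with the 95% interval of the limma fit over 8 samples, grouped by role. Acsl3 (1.79) and Pparg (0.56) lie to the right and Slc27a2 (-2.05), Ppargc1a (-1.30) and Acsl5 (-0.55) to the left of 0, and the other 27 points lie between -0.56 and 0.55.

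Among the uptake genes, Slc27a2 changed most. It encodes a fatty acid transport protein that also activates very long chains. Its normalized log2 levels in untreated replicates 1 to 4 were 6.80, 8.34, 8.07 and 6.56, and in TGF-beta replicates 1 to 4 they were 4.57, 6.38, 5.93 and 4.72. Every TGF-beta sample lay below every untreated one, but by little, because replicates 2 and 3 were the higher ones in both groups. The fall was 2.05 on the log2 scale (SE 0.495, 4.13-fold, limma adjusted p = 0.0175), given separately by set in brackets (-2.04 for replicates 1 and 4, -2.05 for replicates 2 and 3). The probe was detected on 4 untreated and 2 TGF-beta arrays, so the size of the fold is uncertain. A second Slc27a2 probe was detected on 3 untreated and 0 TGF-beta arrays, too few for testing. Its TGF-beta samples all lay below the untreated ones, with differences of -0.81 for replicates 1 and 4 and -2.51 for replicates 2 and 3. No fold is given for it, since its TGF-beta signals and that of untreated replicate 4 were below detection. With the replicate number as a block the adjusted p of the tested probe was 1.25e-05, and without the detection filter it was 0.064.

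Slc27a4, the transporter most often tied to fat uptake by enterocytes, ranged from 5.38 to 6.29 untreated and from 5.67 to 6.45 with TGF-beta, a difference of 0.26 (SE 0.232, limma adjusted p = 0.494). It was higher in 4 of 4 numbered pairs, which is true in one direction or the other of 48.9% of all genes. Cd36, a fatty acid receptor and transporter, was detected on 0 of 8 arrays, with untreated log2 signals of 4.42, 4.58, 4.58 and 4.47 and TGF-beta signals of 4.47, 4.56, 4.61 and 4.56. The dimmest signal that counted as detected was 5.04 to 5.23 depending on the array, so the Cd36 signal has only an upper bound in both groups. Whether this probe responds to the transcript was not tested, so the gene is not shown to be absent.

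The acyl-CoA synthetases moved in opposite directions. Acsl3, an enzyme of the endoplasmic reticulum and lipid droplets, had levels of 8.39, 8.60, 8.23 and 8.53 in untreated replicates 1 to 4 and of 9.95, 10.25, 10.46 and 10.26 in TGF-beta replicates 1 to 4. The groups were far apart, with the lowest TGF-beta sample well above the highest untreated one. The rise was 1.79 (SE 0.153, 3.47-fold, limma adjusted p = 5.1e-05), or 1.65 for replicates 1 and 4 and 1.94 for replicates 2 and 3. A second tested Acsl3 probe rose by 1.34, and another was not detected on any array. Acsl3 had the largest rise among the 32 members.

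Acsl5, the long-chain synthetase known for high expression in intestinal epithelium, gave 12.88, 12.71, 12.97 and 13.04 in untreated replicates 1 to 4. With TGF-beta it gave 12.34, 12.47, 12.28 and 12.32. The groups did not overlap, and the fall of 0.55 (SE 0.132, limma adjusted p = 0.0168) corresponds to a 1.46-fold change. Its other tested probes gave -0.54 (adjusted p = 0.086) and -0.39 (adjusted p = 0.294), and within replicates 2 and 3 alone the first probe gave -0.46 (adjusted p = 0.152). Acsl4, which prefers arachidonic acid, gave 5.16 to 5.62 untreated and 4.75 to 5.57 with TGF-beta (-0.12, adjusted p = 0.737), at levels near the detection limit. Acsl1 has no named probe here.

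No gene of the carnitine shuttle passed the test. Cpt1a, whose product attaches carnitine and controls the rate of entry into mitochondria, was detected on 0 of 8 arrays by either of its probes. The brighter probe gave 4.828, 4.801, 4.938 and 4.995 untreated and 4.84, 5.08, 5.06 and 4.69 with TGF-beta, so the rate-controlling gene cannot be compared here. Cpt2, which takes carnitine off again inside the mitochondrion, was bright, with a difference of -0.00 (SE 0.173, adjusted p = 0.991), and its 3 probes gave -0.00 to 0.21. Slc25a20, the carrier that exchanges acylcarnitine for carnitine across the inner membrane, ranged from 8.55 to 9.15 untreated and from 8.70 to 9.76 with TGF-beta (0.37, SE 0.257, adjusted p = 0.367). In replicates 2 and 3 alone Slc25a20 was higher by 0.65 (limma adjusted p = 0.046), and in replicates 1 and 4 alone by 0.10. These differences between the sets did not pass their own test (interaction term, adjusted p = 0.526).

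The acyl-CoA dehydrogenases, which start the mitochondrial cycle and differ in the chain length they prefer, did not pass either. Acadm, the medium-chain enzyme, gave 10.30, 10.92, 10.97 and 10.38 untreated and 10.38, 10.98, 10.89 and 10.34 with TGF-beta. Replicates 2 and 3 stood above replicates 1 and 4 in both groups, and the groups themselves nearly coincided (difference 0.01, SE 0.218, limma adjusted p = 0.986). Acadl, the long-chain enzyme, gave 6.67, 7.69, 7.58 and 7.29 untreated and 7.02, 7.87, 8.14 and 7.54 with TGF-beta (0.34, SE 0.279, adjusted p = 0.460). A dimmer Acadl probe gave -0.01, so the probes do not point the same way. Acads, the short-chain enzyme, was the only one whose groups did not overlap, with 8.81 to 8.93 untreated and 8.94 to 9.34 with TGF-beta (0.31, SE 0.135, adjusted p = 0.149). For Acadvl, the very long-chain enzyme, the difference was 0.29 (SE 0.217, adjusted p = 0.419).

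Of the genes for the later mitochondrial steps, Acaa2, the thiolase that releases acetyl-CoA, had the largest difference. Its levels were 8.54, 9.11, 9.42 and 8.59 untreated and 7.86, 9.20, 8.74 and 7.90 with TGF-beta. The value of -0.49 (SE 0.319, adjusted p = 0.338) did not pass, all 4 of its probes gave values from -0.54 to -0.36, and with the replicate number as a block the adjusted p was 0.048. Echs1, the short-chain enoyl-CoA hydratase, gave 0.15 (adjusted p = 0.683), and Hadhb, the thiolase subunit of the mitochondrial trifunctional protein, gave 0.02 (adjusted p = 0.966). The probe for the partner subunit Hadha was at the detection limit, on 2 arrays of each group. The brighter probe for Hadh, the short-chain hydroxyacyl-CoA dehydrogenase, was detected on 1 array of each group, too few for testing. The auxiliary enzymes for unsaturated chains did not pass, with -0.27 for the isomerase Eci1, 0.01 for the isomerase Eci2 and 0.08 for the reductase Decr1 (adjusted p from 0.510 to 0.982).

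The electron transfer genes gave 3 different values. Etfa and Etfb encode the subunits of the electron transfer flavoprotein and Etfdh the oxidoreductase that hands its electrons to ubiquinone. Etfb gave 10.57, 10.88, 10.92 and 10.38 untreated and 9.70, 10.54, 10.47 and 9.93 with TGF-beta, lower in 4 of 4 pairs (-0.53, SE 0.217, limma adjusted p = 0.127, and 0.0178 with the replicate block). Etfdh gave 7.30, 7.85, 8.02 and 7.08 untreated and 7.86, 8.48, 8.58 and 7.53 with TGF-beta, higher in 4 of 4 pairs (0.55, SE 0.280, adjusted p = 0.215, and 0.0081 with the replicate block). A second tested Etfdh probe, detected on 2 untreated and 3 TGF-beta arrays, gave 0.03 and was higher in 2 of 4 pairs (adjusted p = 0.939). For the brighter probes of both genes the groups overlapped over all samples. All 4 numbered pairs went one way in 48.9% of all genes. Etfa, at 11.74 to 12.23 untreated and 11.74 to 12.28 with TGF-beta, gave 0.01 (adjusted p = 0.988).

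No tested gene of the peroxisome passed. Ehhadh, the bifunctional hydratase and dehydrogenase of the peroxisomal cycle and a familiar Ppara target, was dim, with 5.07, 5.66, 5.25 and 4.71 untreated and 4.74, 5.52, 5.43 and 4.95 with TGF-beta (-0.01, SE 0.237, adjusted p = 0.980), and was detected on 3 untreated and 2 TGF-beta arrays. Hsd17b4, the second multifunctional enzyme of that cycle, gave -0.14, the thiolase Acaa1a -0.30 and the branched-chain oxidase Acox3 0.27 (adjusted p from 0.283 to 0.575). Cat, which breaks down hydrogen peroxide, gave 7.45, 7.27, 7.43 and 7.47 untreated and 7.40, 7.76, 7.30 and 7.80 with TGF-beta, so its groups overlapped (0.16, SE 0.154, adjusted p = 0.535).

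Pex11a, a membrane protein that promotes peroxisome division, was lower in 4 of 4 pairs, with 7.08, 8.01, 8.24 and 7.20 untreated and 6.53, 7.65, 7.33 and 6.80 with TGF-beta. Its difference of -0.56 (SE 0.315, limma adjusted p = 0.267) passed only in the fits that take the pairing or the set into account (adjusted p = 0.0151 with the replicate block, 0.0092 with the set as a block). The import receptor Pex5, which recognises the common peroxisomal targeting signal, gave -0.05 (adjusted p = 0.902), and the transporter Abcd3, an abundant protein of the peroxisomal membrane, gave 0.22 (adjusted p = 0.427).

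With the replicate block, 9 of 32 members passed, 28.1% against 31.6% of all genes. The members that then rose were Acsl3, Pparg and Etfdh, where 14.4% of all genes rose. Those that fell were Slc27a2, Acsl5, Ppargc1a, Acaa2, Etfb and Pex11a, where 17.3% of all genes fell.

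The regulators divided. Ppargc1a, a coactivator that drives mitochondrial biogenesis and fatty acid oxidation together with Ppar and other nuclear receptors, gave 6.78, 7.31, 7.71 and 7.33 in untreated replicates 1 to 4. It gave 5.93, 6.26, 5.96 and 5.78 in TGF-beta replicates 1 to 4, so the groups stood apart with no overlap. The fall of 1.30 (SE 0.201, 2.46-fold, limma adjusted p = 0.0019) came to -1.20 for replicates 1 and 4 and -1.40 for replicates 2 and 3. A second Ppargc1a probe was not detected on any array (mean 4.46 untreated and 4.56 with TGF-beta), so the call rests on a single probe.

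Pparg, the family member best known for fat storage and also expressed in intestinal epithelium, had a very small spread. It gave 8.77, 8.86, 8.87 and 8.76 untreated and 9.29, 9.40, 9.32 and 9.51 with TGF-beta. The rise was 0.56 (SE 0.123, 1.48-fold, limma adjusted p = 0.011), or 0.63 for replicates 1 and 4 and 0.49 for replicates 2 and 3, where it did not pass alone (adjusted p = 0.103). Under median scaling of the arrays, which shifted the all-gene median from -0.05 to -0.18, Pparg was at 0.40 (adjusted p = 0.222). The second tested Pparg probe, detected on 3 arrays of each group, gave 0.48 (adjusted p = 0.195).

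Ppard, the remaining family member, was a bright gene that did not pass the test, with 10.51, 9.91, 9.92 and 10.47 untreated and 10.53, 9.54, 9.74 and 10.71 with TGF-beta (-0.07, SE 0.278, adjusted p = 0.899). That probe was lower in replicates 2 and 3 in both groups. A second, dim Ppard probe, detected on 1 untreated and 3 TGF-beta arrays, gave 0.46 and was higher in 4 of 4 pairs (adjusted p = 0.094), so the probes differ in sign. Ppara, the family member that switches on fatty acid oxidation in liver, was detected on 2 untreated arrays and 0 TGF-beta arrays and was not tested. Its untreated signals were 4.54, 5.24, 5.19 and 4.56 and its TGF-beta signals 4.51, 4.60, 4.79 and 4.43, with the detected ones in untreated replicates 2 and 3. Pdk4, the kinase that turns cells from glucose to fatty acids and a common Ppar target, was detected on 0 untreated and 2 TGF-beta arrays, with 4.845, 5.002, 4.891 and 4.791 against 4.637, 5.120, 5.093 and 5.092. Both genes lie at the detection limit and no fold is given.

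**Figure D2:**
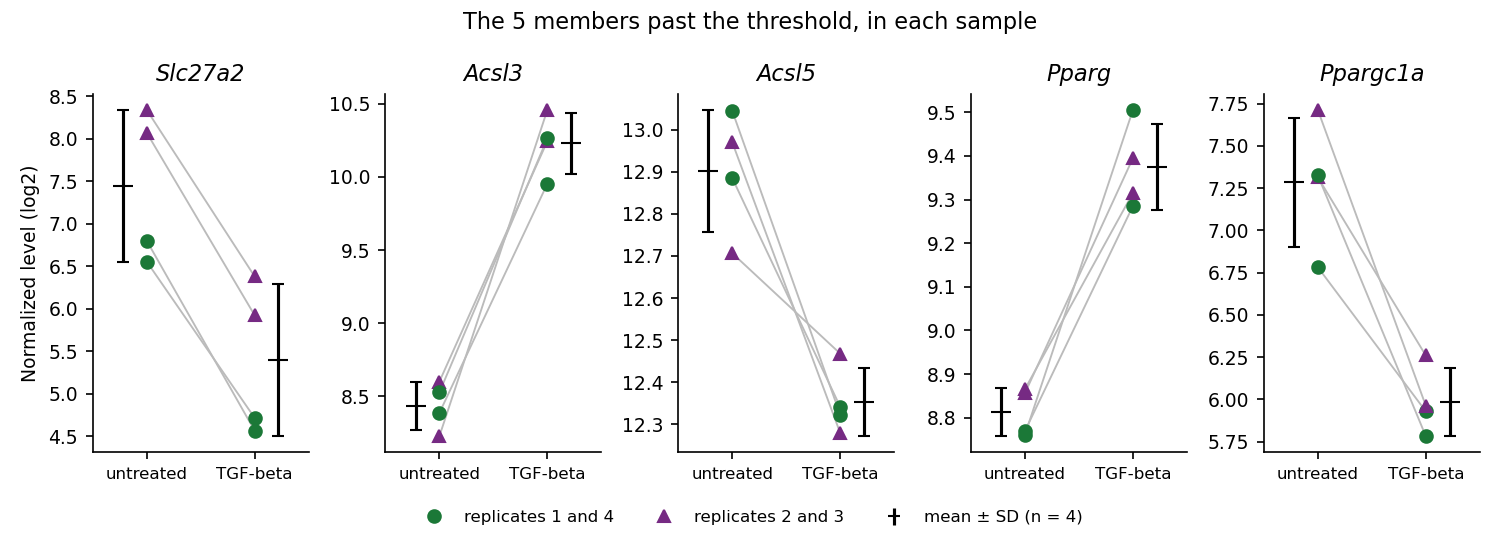
Normalized log2 level of the 5 genes past the threshold in each sample, with lines joining the same replicate number, circles for replicates 1 and 4, triangles for replicates 2 and 3, and bars for the mean ± SD (n = 4); each panel has its own axis. The groups do not overlap in any panel, and for Slc27a2 the replicate sets differ by 1.52 on average and the treatments by 2.05.

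Many of these genes were higher in replicates 2 and 3 than in replicates 1 and 4, in both groups. In 13 of the 32 tested members all 4 arrays of replicates 2 and 3 lay above all 4 arrays of replicates 1 and 4, where 7.51% of all tested genes did. The members were Cpt2, Slc25a20, Acadm, Acadl, Acadvl, Hadhb, Acaa2, Eci2, Ehhadh, Acaa1a, Etfa, Pex11a and Abcd3. By the brightest tested probe of each gene, Ppard was the only member with replicates 2 and 3 below, where 7.49% of all genes were. In either direction 15% of all genes did not overlap between the sets. On average over the 8 arrays, 27 members were higher and 5 lower in replicates 2 and 3, and the median difference between the sets was 0.43 over the members and -0.03 over all tested genes.

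The difference between the sets was largest for Slc27a2 (1.52), followed by Pex11a (0.91), Acaa2 (0.89), Etfdh (0.79), Acadl (0.69) and Slc25a20 (0.65), and it was -0.78 for Ppard. With TGF-beta the same genes gave -2.05, -0.56, -0.49, 0.55, 0.34, 0.37 and -0.07. Acsl3, Acsl5 and Pparg, which changed with TGF-beta, differed little between the sets at their brightest probes (0.10, -0.04 and 0.03). Ppargc1a differed by 0.36. The other tested Acsl5 probes gave 0.29 and -0.63, the latter with replicates 2 and 3 fully below. These sets were recognised from the data and are not groups of the study, so the values are given as a description without a test. Markers of enterocytes also differed between the sets. In 11 of 18 tested enterocyte markers replicates 2 and 3 lay fully above, the median difference was 2.36 and the range -0.25 to 4.52, with Apoc3 (4.52), Apoa4 (3.96) and Apoa1 (3.28), apolipoproteins of fat export, among the highest. Summed over the 18 markers, normalized intensity was 16633 to 23526 in replicates 1 and 4 and 31033 to 50946 in replicates 2 and 3. Of 11 goblet, Paneth and endocrine cell markers 8 also lay fully above (median 0.88), while 1 of 9 general epithelial markers did (median 0.02). The part of these cells in the levels of the fatty acid oxidation genes was not tested. Sex of the animals, the animal itself and any batch shared by the replicates cannot be told apart here. Under median scaling 4 members lay fully above, where 4.37% of all genes did, with a median difference of 0.37.

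**Figure D3:**
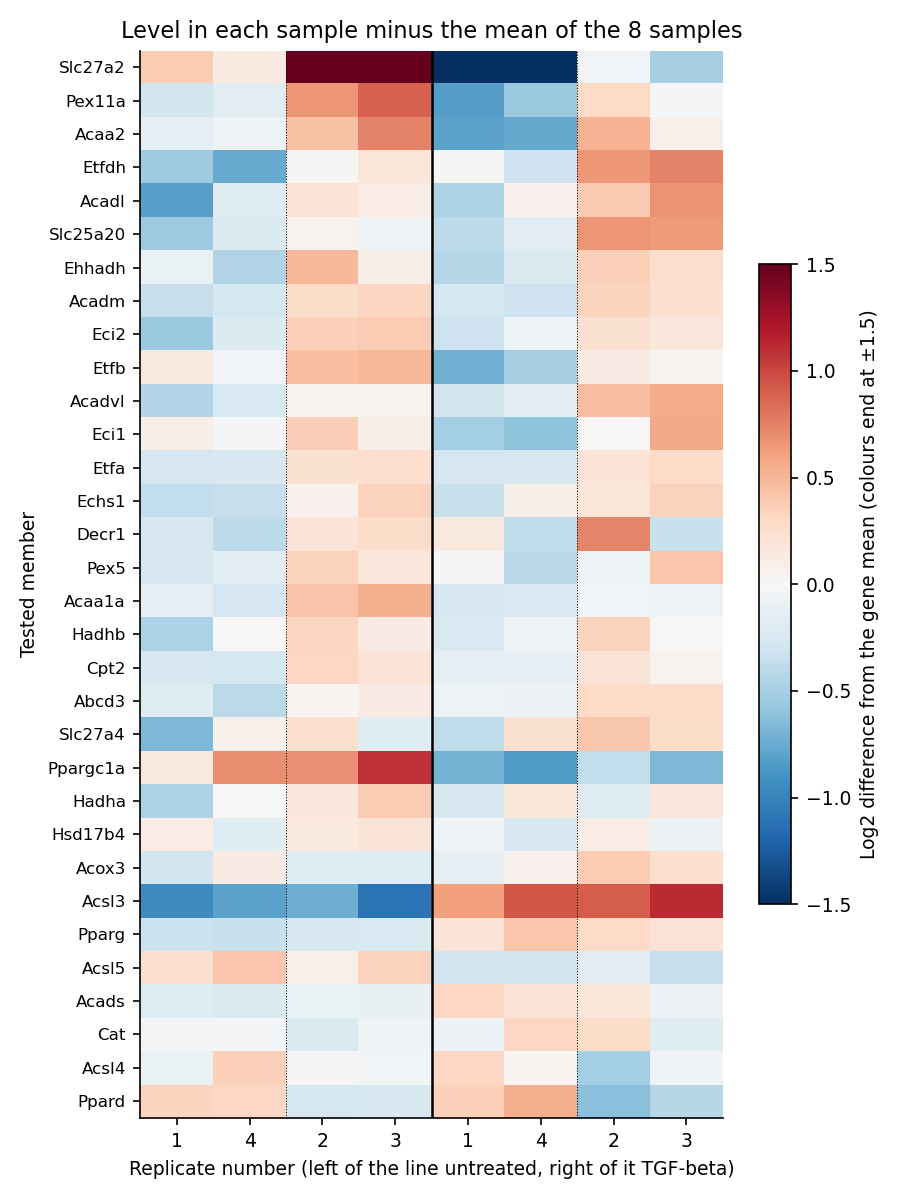
Level of the 32 tested genes in each of the 8 samples as log2 difference from the gene's own mean, sorted by the difference between replicates 2 and 3 and replicates 1 and 4; colours end at ±1.5. For most of the upper rows the columns of replicates 2 and 3 are redder than those of replicates 1 and 4 on both sides of the line, while Acsl3, Pparg, Acsl5 and Ppargc1a change colour at the line between untreated and TGF-beta.

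The response to TGF-beta itself was not found to depend on the set. In the limma fit with an interaction term, 0 of 32 members passed (lowest adjusted p = 0.524, with 0 members at an unadjusted p under 0.05), against 0.011% of all genes. This misses the threshold and does not show that the responses were equal.

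**Figure D4:**
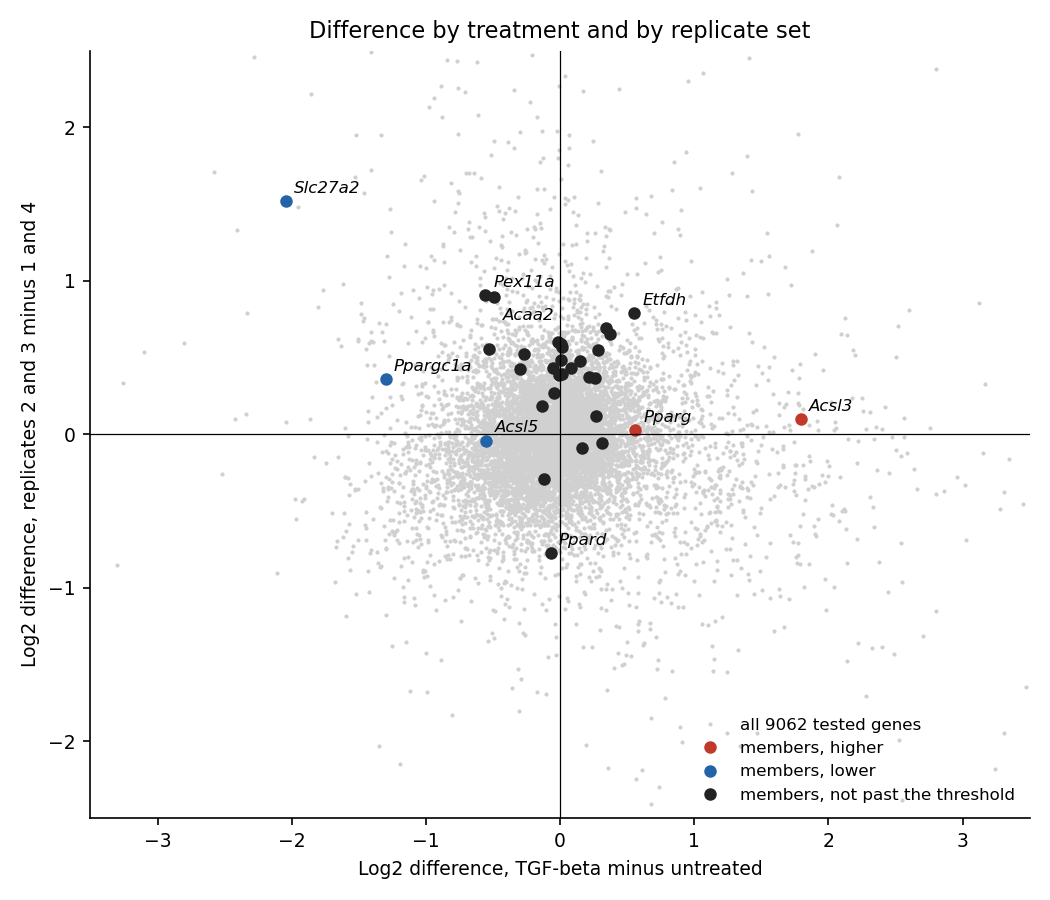
Each point is a tested gene, with the log2 difference between TGF-beta and untreated on the horizontal axis and that between replicates 2 and 3 and replicates 1 and 4 on the vertical axis; grey points are all genes (57 lie beyond the axes) and large points the 32 members. The members that did not pass lie mostly near 0 horizontally and above 0 vertically, with Ppard below.

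Promoter sequence was read because Ppar receptors, paired with Rxr, bind a DR1 element, that is AGGTCA, any single base, and AGGTCA again. RefSeq promoters of build GRCm38.p6, 300 bases each with 250 bases before the start, were found for 35 of the 38 genes. Searched on both strands with up to 2 mismatches in the 12 fixed bases, 5 of the 35 genes (14.3%) had a match in any of their promoters, against 4.40% of 27025 genes in the table. With up to 3 mismatches the shares were 31.4% and 27.3%, and none of the 35 had a match with 1 mismatch or fewer. The matches were in Cat, Cd36, Echs1, Etfa and Slc25a20, of which Cd36 was not tested and the other 4 did not pass the test for TGF-beta. A single AGGTCA, which overlaps the element searched, was present in 22.9% of the members and in 18.1% of all genes.
The matches upstream of the start are shown 5′ to 3′ on the strand of the gene, with the element in capitals. All of these genes lie on the minus strand.
Cat, chr2:103485325-103485377: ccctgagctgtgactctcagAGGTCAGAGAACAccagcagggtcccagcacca
Cd36, chr5:17835927-17835979: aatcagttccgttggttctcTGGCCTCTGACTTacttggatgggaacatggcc
Echs1, chr7:140116472-140116524: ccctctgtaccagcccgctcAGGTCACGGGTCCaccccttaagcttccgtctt
Etfa, chr9:55512288-55512340: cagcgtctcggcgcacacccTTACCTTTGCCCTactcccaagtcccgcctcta

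Of the 5 genes that changed, Slc27a2 and Pparg had a single AGGTCA within the 250 bases upstream of a start, and Acsl3, Acsl5 and Ppargc1a had none there. Stretches of 100 bases that hold it are shown because these genes moved in opposite directions, with AGGTCA or its complement TGACCT in capitals. Both genes lie on the plus strand.
Slc27a2, chr2:126552774-126552873: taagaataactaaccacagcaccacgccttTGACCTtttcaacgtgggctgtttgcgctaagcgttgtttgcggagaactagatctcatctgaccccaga
Pparg, first start, chr6:115361044-115361143: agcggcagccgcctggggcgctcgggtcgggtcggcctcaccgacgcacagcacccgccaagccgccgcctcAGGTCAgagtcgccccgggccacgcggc
Pparg, second start, chr6:115362249-115362348: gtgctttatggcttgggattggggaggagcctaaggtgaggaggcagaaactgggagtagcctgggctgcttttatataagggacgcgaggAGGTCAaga
A match describes these letters only and is not evidence of binding.

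Further genes of the same pathways came from 6 lists that hold 175 other genes, of which 106 were tested. There 11 rose and 8 fell (limma), 17.9% against 19.4% of all genes, and the median difference was -0.06. Among 21 further mitochondrial oxidation genes 0 rose and 2 fell (9.52% called, against 19.4% of all genes). They were Ivd (-0.57, limma adjusted p = 0.0125), an enzyme of leucine breakdown, and Hsd17b10 (-0.56, limma adjusted p = 0.0128), a short-chain dehydrogenase. At an unadjusted p under 0.05, 0 of these 21 were higher and 8 lower, where 14.9% and 18% of all genes were. Of 36 further peroxisomal genes 4 rose and 1 fell (13.9% called, against 19.4% of all genes). The membrane channel gene Pxmp2, detected on 0 untreated and 4 TGF-beta arrays, was at least 2.65-fold higher. It passed the detection filter only through the TGF-beta arrays, so its call as a rise is not independent of that filter. Acox2, the oxidase for bile acid intermediates and branched chains, rose by 1.14 (SE 0.207, adjusted p = 0.0043), Far1, an enzyme of ether lipid synthesis, by 0.94 and the NADPH-producing Idh1 by 0.55, and the coenzyme A hydrolase gene Nudt19 fell by 0.90.

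Among 23 further Ppar targets and regulators, 3 rose and 2 fell (21.7% called, near the 19.4% of all genes). Plin2, the coat protein of lipid droplets, gave 5.41, 5.95, 6.35 and 5.43 untreated and 7.51, 7.58, 8.02 and 7.87 with TGF-beta, a rise of 1.96 (SE 0.227, 3.90-fold, limma adjusted p = 3.6e-04) with no overlap. Hilpda, which inhibits fat breakdown at lipid droplets, rose by 1.26 and the phosphatidate phosphatase gene Lpin2 by 0.74, while the mitochondrial deacetylase gene Sirt3 fell by 0.80 and Pdk3 by 0.69. Angptl4, a familiar Ppar target, gave 0.05 (SE 0.227, adjusted p = 0.917). Of 4 tested ketone body genes, 1 rose and 2 fell (75% called). The one that rose was Bdh2, a cytosolic hydroxybutyrate dehydrogenase, with levels between 4.63 and 5.16 untreated (detected on 1 array). With TGF-beta its levels were between 6.97 and 7.16 (limma adjusted p = 1.7e-05, no fold given so near background). Oxct1, which starts the use of ketone bodies, and the transporter gene Slc16a6 fell by 0.79 and 0.75. Of 7 tested uptake and activation genes, Acsbg1, a synthetase for very long chains, rose and 0 fell (limma, 14.3% called, 1 lower at an unadjusted p under 0.05). Its levels were between 4.85 and 5.11 untreated (detected on 1 array) and between 5.53 and 6.79 with TGF-beta (limma adjusted p = 0.0047, again with no fold). Bdh2 and Acsbg1 passed the detection filter only through their TGF-beta arrays, so their adjusted p-values are not independent of it. Fabp1 and Fabp2, the fatty acid binding proteins of enterocytes, were detected on 0 of 8 arrays. Whether their probes respond to these transcripts was not tested, so the genes are not shown to be absent.

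Several of these calls were close to the threshold. The call of Pdk3 was lost on leaving out any untreated sample, or TGF-beta replicate 1, 2 or 4 (differences of -0.72 to -0.53, adjusted p of 0.064 to 0.095). That of Far1 was lost on leaving out untreated replicate 2 or 3, or TGF-beta replicate 1 or 4 (differences of 0.77 to 0.87, adjusted p of 0.079 to 0.090). For Idh1 the samples were untreated replicate 2, TGF-beta replicate 2 and TGF-beta replicate 3 (differences of 0.47 to 0.53, adjusted p of 0.050 to 0.064).

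Markers of enterocytes, the cells in which fat uptake is strongest, moved in both directions. Of 18 tested, 3 rose and 2 fell (27.8% called, against 19.4% of all genes). Apob (1.55), Vil1 (0.79) and Lgals4 (0.62) were higher and the brush border peptidase genes Dpp4 (-1.41) and Mep1b (-1.17) lower. Summed over the 23 enterocyte markers with a probe, normalized intensity was 16770 to 38590 in untreated and 23648 to 51169 in TGF-beta samples, so the groups overlapped, while over the 18 tested markers the TGF-beta samples had the higher sums within each replicate set. These sums are on the linear scale and weigh bright genes most, such as Lgals4 (mean log2 level 13.41 untreated and 14.03 with TGF-beta). Of the 18 differences 10 were positive and 8 negative, the lowest -2.28 for Sis, which did not pass. Slc2a5 was not detected on any array. Of the 9 epithelial markers, 6 rose (Cdh1, Epcam, Krt8, Krt18, Krt19 and Vil1) and 1 fell (Cdx2), which is 77.8% called against 19.4% of all genes. Epcam was detected on 0 untreated and 4 TGF-beta arrays. It passed the detection filter only through the group where it is higher, so its call is not independent of that filter. Their summed normalized intensity was 21074 to 24931 in untreated and 46222 to 56097 in TGF-beta samples, with no overlap. The sum is on the linear scale, where the bright keratins weigh most, above all Krt8 (mean log2 level 13.41 untreated and 14.72 with TGF-beta). Of the 9 differences 7 were positive and 2 negative (Cdx1 and Cdx2). The part of either shift in the changes of Acsl3, Pparg, Slc27a2, Acsl5 and Ppargc1a was not tested.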

How the data were processed

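The authors deposited non-normalized signal intensity values and detection p-values, per the file headers, for 45281 probes on 8 Illumina arrays, and a value table on the log2 scale. That deposited log2 table states no method. From its values it is quantile normalized, with a median of 7.1 in each column. Against the log2 intensity of its own array, each column had a correlation of at least 0.998 over the probes. Precision is limited by having 4 arrays per group.

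Intensities were background corrected with normexp from the detection p-values (offset 16), quantile normalized and put on the log2 scale (limma 3.58.1, R 4.3.3). Probes with a detection p under 0.05 on at least 4 of 8 arrays were tested, 15573 in all, of which 13513 have a single symbol in the platform annotation and represent 9062 genes. The annotation gives 34885 probes a single gene symbol and 18 several, and 10378 are unlisted. Of the named probes, 34807 had an Entrez identifier in the RefSeq table of GRCm38.p6. A gene was represented by its brightest tested probe. Group differences were fitted with lmFit and eBayes to the 8 samples with group as the sole term. Tests were two-sided, and p-values were adjusted by Benjamini-Hochberg across the tested probes. Where a group had no array with the probe detected, its level was bounded by the dimmest detected signal of each array. The fit was tested on simulated data.

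The replicate numbers pair the samples by their values, since samples that share a number deviated together from their groups (correlations of 0.512 to 0.554 for the 4 numbers). The labels tie the numbers to nothing. The fit with a replicate block was an alternative, and much of the pairing is the division into replicates 1 and 4 against 2 and 3.

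The members, the other lists and the tests were chosen with earlier results of these data known. All members were to be named, with sample values for those past the threshold and for a list of key enzymes and regulators. The other lists contributed at most 5 called genes each, taken by smallest adjusted p. Sample values for Acaa2, Etfb, Etfdh, Pex11a and Plin2 were added after the values were seen, as was the description of levels by replicate set. Alternatives were no background correction, median scaling, cyclic loess, the authors' table, no filter or a strict filter (detection p under 0.01, all 8 arrays), variances that were trended and robust, replicate or set as a block, each set alone, the average of a gene's probes, a threshold of 0.01 and leaving out each sample. A planned search for peroxisomal targeting signals was not run, since no protein sequences were used here. Plots used matplotlib 3.10.9 (Python 3.11.15).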

Additional observations from a re-analysis of the deposited data

Results flagged for a closer look

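Among the tested fatty acid oxidation genes, 0 of 64 groups of 4 samples held a sample that stood apart from the other 3 by Dixon's criterion, and 0 members passed the test for a response that differs between the replicate sets (limma, 0 at an unadjusted p under 0.05). Over these and the other named genes 4 of 122 groups held such a sample, where chance gives about 1 in 20 if the 4 samples are alike. Each group holds samples of both replicate sets in equal number. For genes that differ between the sets a single sample can hardly stand apart from the other 3. So the low counts do not show that the samples were even. Bdh2 was at 7.16 in TGF-beta replicate 2, above 6.969 to 6.998 in the others. Cdx2, an intestinal transcription factor among the epithelial markers, was at 10.83 in untreated replicate 4, below 11.23 to 11.31. For Idh1 untreated replicate 2 was at 9.61, below 9.91 to 9.95, and for Nudt19 untreated replicate 1 was at 9.06, below 9.37 to 9.42.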

How the results depend on the processing

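Acsl3 and Ppargc1a kept their direction and passed under all 21 alternatives. The call of Slc27a2 was lost when undetected probes were kept, and that of Acsl5 within replicates 2 and 3 alone. That of Pparg was lost there and under median scaling, and these 3 missed 0.01. Slc27a2 was not tested under the strict filter, which 28 members passed. With the replicate block 1302 genes rose and 1566 fell, with 6 members and 20 of the other pathway genes lower. The set as a block gave 1308 and 1580 genes, 6 members and 22 of the other pathway genes lower. No other member's call changed with the replicate block than those given above. Median scaling left 495 genes, 1 member and 6 of the other pathway genes higher, with a member median of -0.13. Higher genes were then 34.5% of those called, against 49.2%. Replicates 1 and 4 alone gave 5 members lower and a median of 0.10. Averaging probes gave 13 other pathway genes lower. A threshold of 0.01 left 475 genes higher and 361 lower, 1 member each way, and 4 other pathway genes lower. With 1 mismatch allowed 0 members had a DR1 element. Leaving out each sample gave 663 to 756 genes higher and 572 (without untreated replicate 1) to 805 lower, 2 members higher and 3 lower each time, 8 to 11 and 7 to 9 other pathway genes, and a member median of -0.0808 to 0.107, so its sign changed. The fold of a gene near the detection limit, such as Slc27a2, Ehhadh or Ppara, is limited by signal over background. Apart from the stricter threshold, the fewer samples or the smaller mismatch, causes of these shifts were not tested.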

Other observations

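Genes of fatty acid and triglyceride synthesis went both ways with TGF-beta. Of 16 tested, 2 rose and 1 fell (limma, adjusted p under 0.05), which is 18.8% called against 19.4% of all genes. Mlxipl, the carbohydrate-sensing transcription factor of lipogenesis, fell by 1.46 (SE 0.270, 2.76-fold, adjusted p = 0.0046), with 8.24 to 9.08 in untreated and 6.71 to 7.68 in TGF-beta samples, and replicates 2 and 3 were the higher ones in both groups. Me1, which supplies NADPH, rose by 0.60 (SE 0.128) and Agpat2, an acyltransferase of glycerolipid synthesis, by 0.59 (SE 0.149). The call of Agpat2 was lost on leaving out untreated replicate 1 or 2, or TGF-beta replicate 2 or 3 (adjusted p of 0.052 to 0.064). Of 11 tested goblet, Paneth and endocrine cell markers 0 passed, against 19.4% of all genes (limma, 1 lower at an unadjusted p under 0.05).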
